A study of Mus musculus with 2 samples.

Results

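The Dlk1-Meg3 domain is an imprinted stretch of mouse chromosome 12, and this account covers the CTCF peaks that lie in it. The 5 genes that define it are Dlk1 (ENSMUSG00000040856.17), Meg3 (ENSMUSG00000021268.17), Rtl1 (ENSMUSG00000085925.3), Rian (ENSMUSG00000097451.10) and Mirg (ENSMUSG00000097391.8). The span runs from 20 kb before Dlk1 to 20 kb past Mirg, chr12:109432823-109769460 on assembly mm10 (336.638 kb). Its members are the peaks whose summit lies in that span, 18 of the 68603 in the optimal list. That list was thresholded by the irreproducible discovery rate (IDR), a measure of how repeatably peaks rank in paired sets. CTCF chromatin immunoprecipitation and sequencing was done on midbrain tissue from B6NCrl mice at postnatal day 0, in 1 group of 2 replicates. Sex was not collected, and no treatment or genotype other than the strain is given. The replicates share their biosample and donor entries, and whether they are separate animals or pools is not given. Differences between them may thus be technical or biological. With 1 group no test between conditions was possible, and all values are descriptions of these libraries.

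Genes of this domain are used from a single parental chromosome. Dlk1, a transmembrane protein related to Notch ligands, and Rtl1, a protein derived from a retrotransposon and needed in the placenta, are expressed from the paternal copy. Meg3, Rian and Mirg are noncoding RNAs expressed from the maternal copy. Rian hosts box C/D small nucleolar RNAs, and Mirg is part of a long array of microRNAs. The switch between the copies is a region between Dlk1 and Meg3 that carries DNA methylation on the paternal copy, and the Meg3 promoter also acquires it there. CTCF recognises a long directional motif through its zinc fingers, stops the cohesin ring at chromatin loop anchors, and at some sites is kept off by methylated CpG. The mice are of an inbred strain and the peak lists do not separate parental copies, so no peak could be assigned to a parent. Peaks carry no measure of RNA, so the tissue label was not checked against expressed markers.

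The CTCF motif was matched no farther than 50 bp from the summit in 9 of the 18 peaks, beside 57.4% of all optimal peaks. The sites are shown because they carry the binding letters and orientation of the domain. They are printed 5′ to 3′ on the strand of the motif, from the mm10 reference, with the core (bases 4 to 17 of 20) in capitals.
16.4 kb before Dlk1, plus strand: aggCCTCTGGGTGGCACtac
14.9 kb before Dlk1, plus strand: ccgCCGGCAGGGGGCGCagc
1818 bp before Meg3, minus strand: cggCCACTAGAGAGCATcag
1175 bp into Meg3, plus strand: tggCCGCAAGAGGGCGCtgg
2043 bp into Meg3, minus strand: agaCCGCTAGGGGGCGCgcg
25.8 kb into Meg3, plus strand: cctCCACCAGATGGCAGtgg
8825 bp into Rian, plus strand: gtgCCACAAGGGGGCTGcct
10.8 kb into Rian, plus strand: ggtCCACTAGATGGCACtat
720 bp past Mirg, minus strand: gtgCCACCAGGGGGCTGcag
The median distance from site centre to summit was 2.5 bp (range 0.5 to 13.5 bp). The best match was the one 1175 bp into Meg3, with a per-position p of 3.28e-08. At least 1 CpG was present in 4 of these 9 sites (44.4%), beside 38.0% of all motif sites in optimal peaks. The CpG sites were the one 14.9 kb before Dlk1, with 3 CpG, and the sites 1818 bp before, 1175 bp into and 2043 bp into Meg3, with 1, 2 and 4. No CpG lay in the sites of Rian, of the 3′ part of Meg3 or past Mirg.

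The 4 strongest peaks are also given with their surroundings, 121 bases centred on the summit on the plus strand of mm10, with the motif site in capitals. A site on the minus strand therefore appears as its reverse complement.
2043 bp into Meg3, chr12:109542984-109543104: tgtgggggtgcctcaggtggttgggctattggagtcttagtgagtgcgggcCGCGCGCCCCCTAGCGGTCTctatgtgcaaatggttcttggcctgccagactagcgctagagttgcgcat
14.9 kb before Dlk1, chr12:109437851-109437971: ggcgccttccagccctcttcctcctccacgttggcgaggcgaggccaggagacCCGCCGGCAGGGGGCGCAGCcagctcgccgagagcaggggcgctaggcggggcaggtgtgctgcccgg
720 bp past Mirg, chr12:109750120-109750240: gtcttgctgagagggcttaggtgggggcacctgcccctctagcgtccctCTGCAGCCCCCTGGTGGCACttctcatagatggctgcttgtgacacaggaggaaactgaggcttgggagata
1175 bp into Meg3, chr12:109542116-109542236: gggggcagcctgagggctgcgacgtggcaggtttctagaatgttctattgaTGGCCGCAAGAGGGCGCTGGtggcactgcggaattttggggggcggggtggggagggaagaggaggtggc
These windows lie before the first gene, inside Meg3 and after the last gene of the domain.

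Each peak carries the authors' signal value, on a scale that no label or note states, from the call on both replicates together. In the domain it ran from 7.79 to 301 with a median of 55.5, beside a median of 76.5 over all optimal peaks. Above that overall median lay 7 of the 18 peaks. There were 53.5 peaks per Mb of the span, 23.0 per Mb of chromosome 12 and 27.3 ± 4.99 (SD over 19 autosomes, range 21.0 to 40.2) on the autosomes. That SD is between whole chromosomes and does not measure the spread between stretches as short as the span. The latter was not computed, so the density is not read as unusual. Of the 18 summits, 6 lay in 4.679 kb at the start of Meg3. The 9 peaks with a motif had a median signal of 128 (range 38.1 to 301), and the 9 without had 25.7 (range 7.79 to 127). The same order held over all optimal peaks, with medians of 127 and 49.2. As the motif was learned from the strongest peaks, this order is partly built in. Summits fell in exons in 7 cases, in introns in 4 and between genes in 7. The shares of these locations over all optimal peaks were not computed. Of the 18, 7 lay within 1 kb of an annotated transcript start (38.9%), beside 21.1% of all optimal peaks. Of these 7, 5 lay within 1 kb of a start of Meg3, so the share mostly reflects 1 gene.

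**Figure D1:**
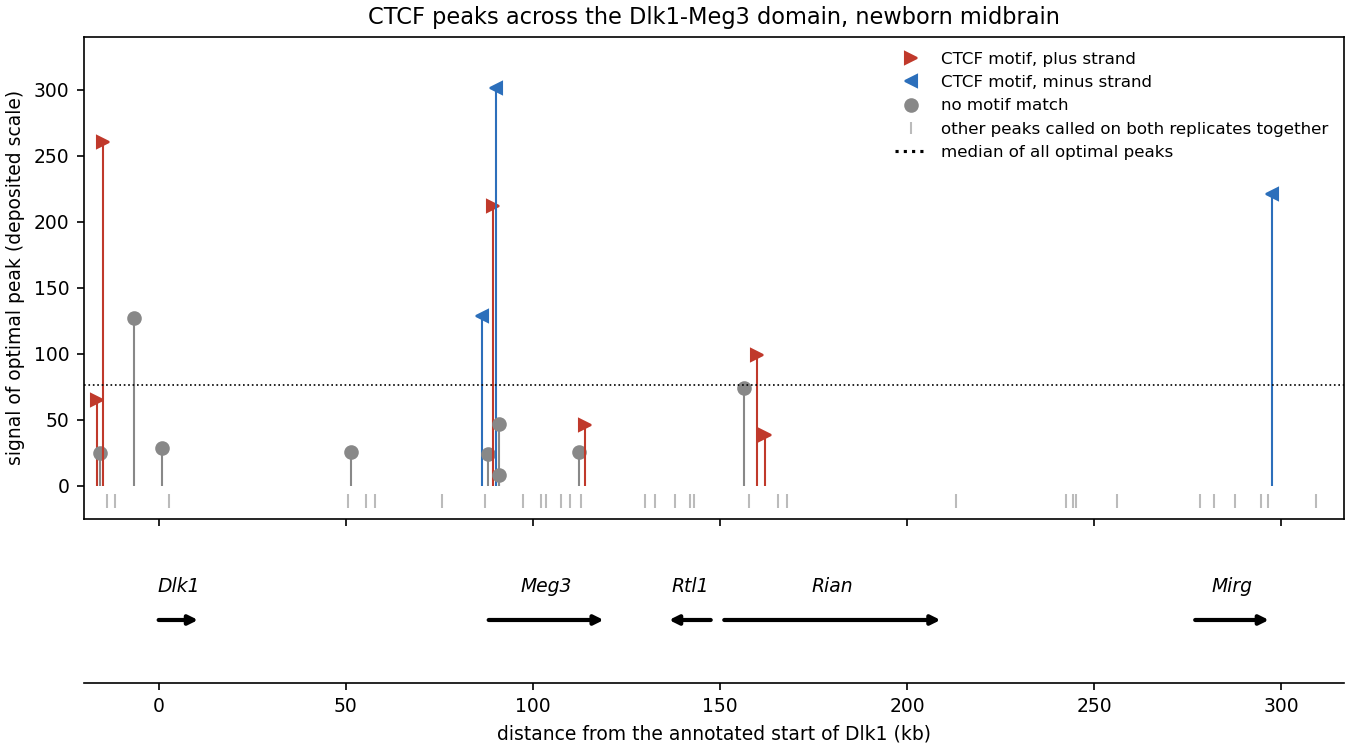
CTCF peaks of the optimal list across the Dlk1-Meg3 domain: signal on the deposited scale against distance from the Dlk1 start in kb, with the 5 genes as arrows in the direction of transcription. Triangles point along the motif strand, grey ticks are other peaks called on both replicates together, and the dotted line is the overall median of 76.5. Peaks with high signal stand before Dlk1, at the start of Meg3 and past Mirg, and no optimal peak is drawn between the 5′ part of Rian and the end of Mirg.

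Before Dlk1 there were 4 peaks in 20 kb. The strongest, 14.9 kb before the gene (chr12:109437785-109438023), had a signal of 260, with 157 in replicate 1 and 103 in replicate 2. It was the second strongest of the domain, at percentiles 83.4 and 76.4 of the optimal peaks in the replicates' own values. A peak 6.6 kb before Dlk1 (chr12:109446168-109446331) had a signal of 127, with 72.0 in replicate 1 and 52.7 in replicate 2. It held no motif match, and its best site had a p of 3.62e-04. It was the only peak without a motif match whose signal was above the overall median. The other 2, at 16.4 and 15.7 kb before Dlk1, had signals of 64.6 and 24.3. The weaker of them was 1 of 4 peaks of the domain that were not in the conservative list, the shorter of the IDR lists (65493 peaks).

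Dlk1 itself held 1 peak (chr12:109453579-109453888), in an exon, 911 bp past the outermost start and 74 bp past the nearest annotated transcript start. Its signal was 28.1, at percentile 11.6 of all optimal peaks. Replicate 1 gave 20.3 and replicate 2 gave 8.05, a log2 ratio 1.03 above the median ratio of all optimal peaks. It was not in the conservative list, and among the strongest 68603 peaks of replicate 2 alone it was absent, which left Meg3 as the only member with a promoter peak there. Its best motif site had a p of 1.74e-05, just short of the threshold of 1e-05. The 301 bases around its summit held 27 CpG and 72.1% G and C, the highest of the 18 peaks on both counts (medians 7.5 CpG and 57.1%).

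The 77.664 kb between Dlk1 and Meg3 held 3 peaks. The coordinates of the methylated switch region were not used here, so no peak is placed inside or outside it. The strongest stood 1818 bp before Meg3 (chr12:109539096-109539264), with a signal of 128, 68.6 in replicate 1 and 57.1 in replicate 2. The next stood 269 bp before Meg3, with a signal of 24.2, 16.5 in replicate 1 and 7.73 in replicate 2, and was not in the conservative list. The third lay 51.3 kb past the Dlk1 start, in an exon of the long noncoding RNA gene Gm34081. Its signal was 25.7, with 19.8 in replicate 1 and 5.47 in replicate 2, a ratio of 3.61 and the largest ratio between replicates among the 17 peaks listed in both. From this peak to the one 1818 bp before Meg3, 35.1 kb had no optimal peak. In the list called on both replicates together the strongest entry of that stretch had a signal of 12, at 12.5 kb before Meg3 (chr12:109528302-109528611). It was listed in replicate 2 at 8.13 and had no summit within 100 bp in replicate 1.

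Meg3 held 6 peaks in 30.726 kb, the most of any member. The strongest of the domain lay 2043 bp into the gene (chr12:109542918-109543170), in an exon, with a signal of 301, 166 in replicate 1 and 134 in replicate 2. The second of the gene lay 1175 bp in (chr12:109542055-109542310), 92 bp before an inner transcript start, with a signal of 212, 113 in replicate 1 and 97.0 in replicate 2. Their motif sites point at each other, plus then minus, with the summits 868 bp apart. Together with the peaks 1818 and 269 bp before the gene, and with 2 weaker ones at 2650 and 2861 bp, they make 6 summits in 4.679 kb. Each of the 6 had the other 5 within 5 kb, beside 0.281% of all optimal peaks with as many neighbours, a distance chosen after the positions were seen. The weakest of the 6 was in neither replicate list. With such peaks left out of the whole list, the 5 that remained each had 4 others within 5 kb, beside 1.29% of optimal peaks. With optimal peaks also in the conservative list, 5 had 4 others, beside 0.842%. Those 5 include the weakest peak and leave out the one 269 bp before the gene, so they are not the same 5. The peak at 2650 bp had a signal of 46.5, with 23.9 in replicate 1 and 23.5 in replicate 2.

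The peak at 2861 bp was the weakest of the domain, at 7.79. Its summit lay 211 bp from its neighbour, and neither replicate list had a summit within 100 bp of it. Its deposited -log10 q was 0.26, while the other 17 peaks stood at the highest value of the list, 5.18, as did 96.0% of all optimal peaks. It was nonetheless in both IDR lists. Without it the domain held 17 peaks with a median signal of 64.6.

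**Figure D2:**
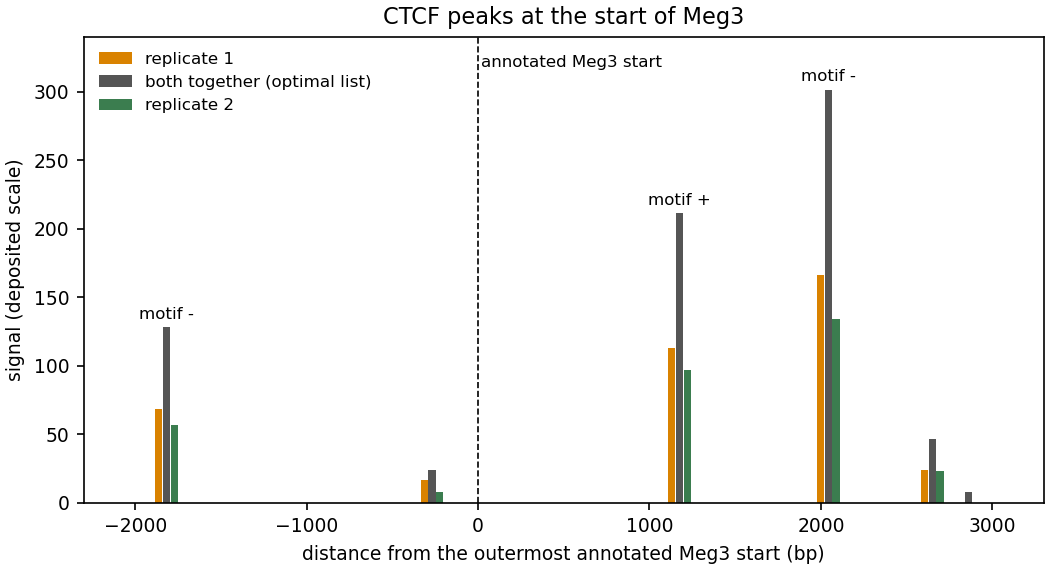
Signal on the deposited scale of the 6 CTCF peaks around the start of Meg3, against distance from the outermost annotated start in bp, in replicate 1, in the call on both replicates together, and in replicate 2. Labels give the strand of the motif where there was a match, and the bars of 301 and 212 stand inside the gene while the peak 269 bp before the start reaches 24.2.

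Farther inside Meg3, 24.0 and 25.8 kb from the start, lay a pair of weaker peaks in exons, with signals of 25.4 and 46.1. The second held a motif site with the third best match of the domain, a per-position p of 5.28e-08, although its signal was below the overall median. It was 1 of 2 peaks with a higher value in replicate 2 (25.4) than in replicate 1 (20.5). A further peak, 960 bp past an inner Meg3 start (chr12:109550060-109550369), was in the conservative list but not the optimal list. Its signal was 27.1, with 12.9 in replicate 1 and 13.3 in replicate 2.

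Rtl1, which lies on the opposite strand to the RNAs around it, held no optimal peak, and the nearest summit was 8923 bp from its start. In the call on both replicates together it had 3 weak peaks, the strongest at 18.1 (chr12:109590619-109590928), in an exon and 327 bp past the start of the microRNA gene Mir431. The replicates gave 8.10 and 8.73 there. The 17.466 kb between Meg3 and Rtl1 and the 3.609 kb between Rtl1 and Rian also held no optimal peak. A weak peak between Meg3 and Rtl1 (signal 12.1, with 7.77 in replicate 1 and 3.96 in replicate 2) was the only one of 33 peaks outside the optimal list to hold a motif match.

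Rian held 3 peaks, all in introns and all within 10.8 kb of its start. The middle one, 8825 bp in (chr12:109612695-109612856), was the strongest, with a signal of 99.0, 56.1 in replicate 1 and 43.5 in replicate 2. It lay 943 bp past the start of the microRNA gene Mir1188. The first, 5313 bp in, had a signal of 74.0 but differed between replicates, with 51.2 in replicate 1 and 20.9 in replicate 2. The last, 10.8 kb in, had a signal of 38.1, with 21.3 in replicate 1 and 15.4 in replicate 2, and the second best motif match of the domain, a per-position p of 3.89e-08. No optimal peak lay within 1 kb of a Rian start.

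From that last peak to the next, 720 bp past Mirg, 135.443 kb had no optimal peak. The stretch took up 40.2% of the span and held 47 of its 66 annotated microRNA genes and 23 of its 23 small nucleolar RNA genes. On chromosome 12, 6.22% of the distances between neighbouring summits were at least as long, and on the autosomes 4.74%. As the stretch was taken as the longest of the 17 distances of the span, these shares do not mark it as unusual. The conservative list also had 0 peaks there. In the call on both replicates together there were 12 weak ones, up to 12.3, and the replicate lists had 14 peaks up to 8.75 and 18 up to 7.69. Repeats masked in the reference made up 14.1% of the stretch and 17.9% of the span, and there were 0 unknown bases. As read depth is not given, this is a stretch with no peak in the IDR lists and not one shown to lack CTCF. Mirg lay inside it, with no optimal peak and 5 weak ones, the strongest at 12.3.

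The peak that ends the stretch (chr12:109750068-109750286) had a signal of 221, with 127 in replicate 1 and 94.3 in replicate 2, the third highest of the domain. Its site is on the minus strand and faces the plus sites in Rian across that stretch. Of the 9 sites, 6 were on the plus strand and 3 on the minus strand, beside 49.8% on the plus strand among all optimal peaks with a motif. Neighbouring sites faced each other in 3 of 8 pairs, before Dlk1 to the site before Meg3 (101.272 kb), inside Meg3 (0.868 kb) and from Rian to past Mirg (135.443 kb). They pointed apart in 2 pairs and the same way in 3. No share of such pairs over all optimal peaks was computed, so these counts are not read as a trait of the domain.

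**Figure D3:**
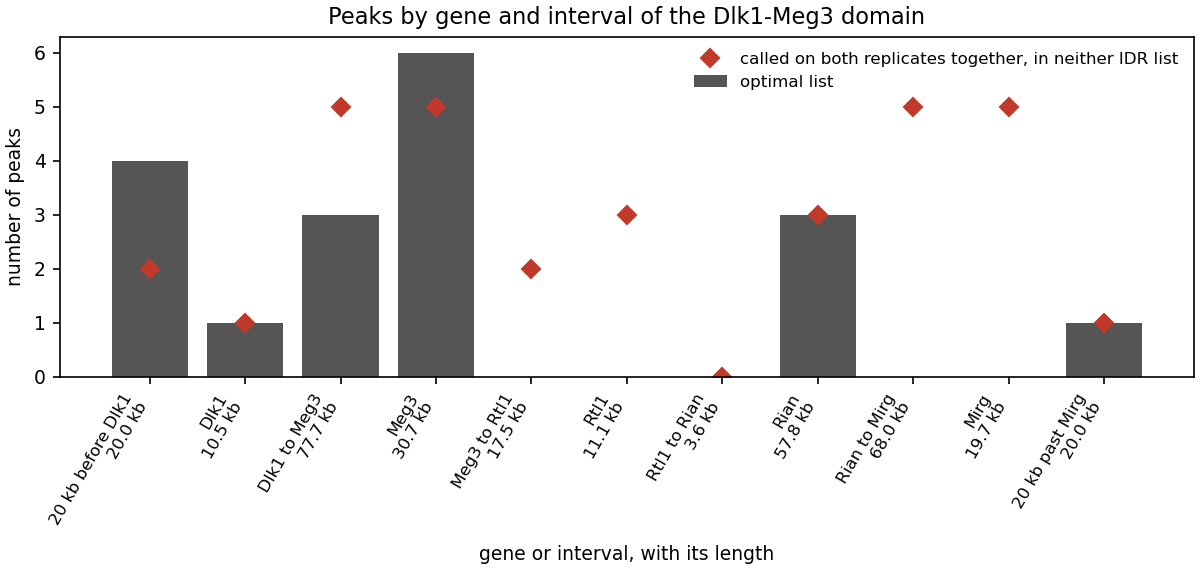
Number of peaks in each gene and interval of the domain, with its length in kb on the axis. Bars count the optimal list, 6 in Meg3 0 in Rtl1 and 0 in Mirg, and diamonds count peaks called on both replicates together that are in neither IDR list.

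A summit within 100 bp was listed in both replicates for 17 of the 18 peaks (94.4%), beside 97.8% of all optimal peaks. The conservative list shared 14 (77.8%, beside 86.9%). Across the 17 peaks Spearman's rho between replicates was 0.919, as a description of peaks that share the same 2 libraries. The optimal list was thresholded by how repeatably peaks rank, so a high rho is partly built in. No rho over all optimal peaks is given beside it. Replicate 1 was higher in 15 of 17, but its values were higher throughout, with a median log2 ratio of 0.30 over all optimal peaks. About that median, 15 of the 17 peaks (88.2%) lay within 2-fold, beside 94.8% of all. The other 2 were the peak in Dlk1 and the one in Gm34081 (1.55 above the median), both higher in replicate 1. The first Rian peak came next at 0.99. Of the 4 strongest peaks, the pair in Meg3 and the one past Mirg lay within 0.13 of the median, and the one 14.9 kb before Dlk1 lay 0.31 above it.

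**Figure D4:**
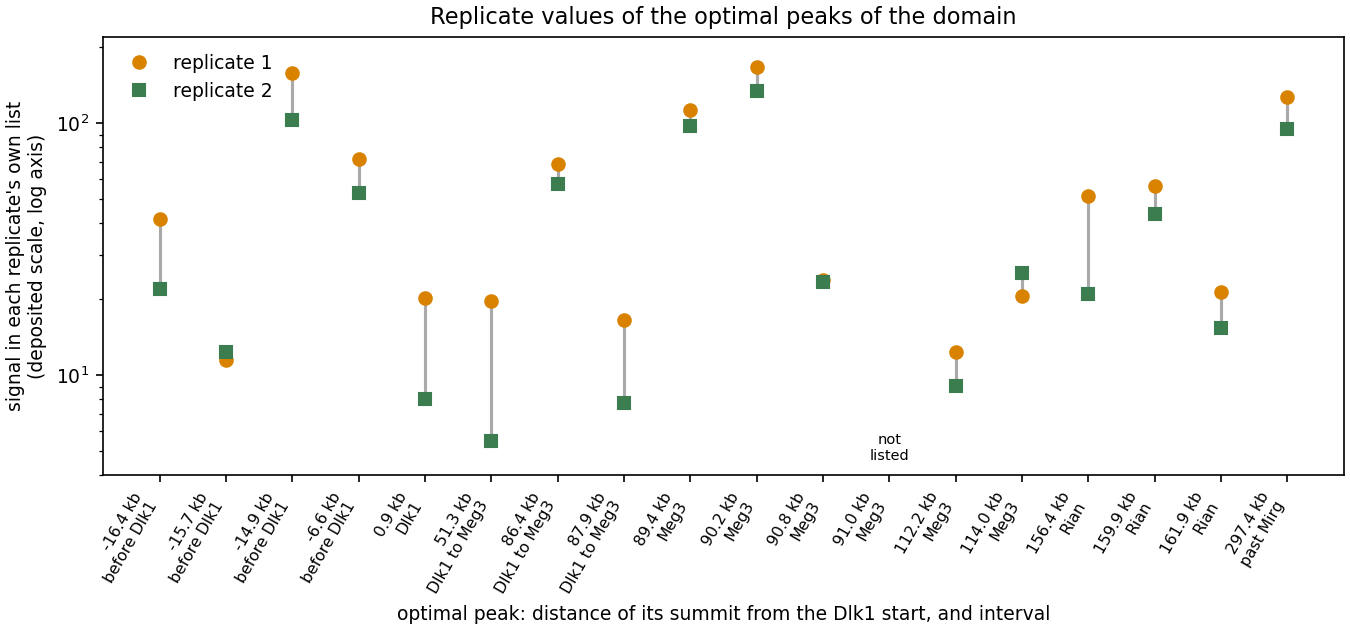
Signal of each optimal peak of the domain in the replicates' own lists, on a log axis and the deposited scale, ordered along the chromosome by distance from the Dlk1 start in kb. Points joined by long lines differ most, at Dlk1, in Gm34081 and at the first Rian peak, and 1 peak had no summit within 100 bp in either list.

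Of the 5 members, 2 had an optimal peak within 1 kb of any annotated transcript start, beside 23.7% of all annotated genes. In the conservative list, and in replicate 2 alone, Meg3 was the only one. Among protein-coding genes the share was 43.4%, and of the coding members Dlk1 had one and Rtl1 had none. Among long noncoding genes of the same annotation classes as Meg3, Rian and Mirg the share was 17.6%, and of those members only Meg3 had one. These shares were not matched for the number of distinct starts, and a gene with more starts has more chances of a peak near one. The number was 9 for Dlk1, 11 for Meg3, 1 for Rtl1, 19 for Rian and 11 for Mirg. With the outermost gene start in place of all transcript starts Meg3 was still counted, but by the peak of 24.2 at 269 bp in place of the one of 301. In RefSeq promoter sequences of GRCm38.p6, 4 of 5 members were matched. A motif match was found in 0 of their 5 windows, beside 4.27% of 32619 windows. Among 1928 noncoding genes with a promoter peak, that of Meg3 ranked 344 by signal. The nearest in signal were F730043M19Rik at 301.7, Gm11731 at 301.8 and Gm49519 at 300.9.

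Genes flanking the domain were taken as a list of 9. Of these, 8 are protein-coding. An optimal peak within 1 kb of a start was present at 3 of the 9, beside 23.7% of all annotated genes and 43.4% of protein-coding ones. Yy1, a zinc finger regulator, had the strongest at 51.2, with 33.7 in replicate 1 and 17.2 in replicate 2. Ppp2r5c, a phosphatase subunit gene, had one of 34.4 and Slc25a29, a mitochondrial carrier gene, one of 30.6 that had no summit within 100 bp in replicate 2. None was listed within 1 kb of a start of Wars, Wdr25, Begain, Dync1h1, Dio3, the thyroid hormone deiodinase gene at the far end of the imprinted cluster, or its antisense partner Dio3os. Peaks lay inside the bodies of several, among them 12 in Wdr25.

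Other imprinted domains cut by the same rule are set beside it with no test. The spans differ in length: 131 kb for H19 and Igf2, 395 kb for Kcnq1 and Cdkn1c, 106 kb for Nespas and Gnas, and 337 kb for Dlk1-Meg3. The 20 kb margins thus make up more of the shorter spans, and the densities are not like for like. The span of H19 and Igf2 had 68.6 peaks per Mb, a median signal of 198 and all 9 peaks above the overall median, where the Dlk1-Meg3 domain had 7 of 18. That of Kcnq1 and Cdkn1c had 35.5 per Mb and a median of 211, with a longest stretch without an optimal peak of 175.693 kb. That of Nespas and Gnas had 94.8 per Mb and a median of 103. The median of 55.5 in the Dlk1-Meg3 domain was the lowest of these 4, and its 9 of 18 peaks with a motif compare with 5 of 9, 11 of 14 and 6 of 10 in the order given.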

How the data were processed

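Peak lists from CTCF ChIP-seq of 2 replicates of newborn midbrain were used. Per the deposited text notes, they are in narrowPeak format on mm10. There is 1 list per replicate (300000 peaks each, called with a control alignment), 1 called on both replicates together (300000), and an optimal (68603) and a conservative (65493) IDR list. The signal per peak (column 7) and the -log10 q value (column 9) are the authors' deposited values. Aligner, caller, depth and the threshold of IDR were not given in the sources used here, and no counting interval is printed. No step recorded makes signal comparable between libraries.

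Summits on chromosomes 1 to 19 and X (68590) were assigned to GENCODE vM21 genes, and sequence came from GRCm38.p6, the same build. A replicate value is that of the nearest summit within 100 bp. A motif matrix of 20 bp was learned by expectation maximisation from the 2000 strongest optimal peaks on X and the odd-numbered chromosomes for use on chromosome 12, and from the even-numbered ones for the rest. A match needed a p of 1e-05 per position with its centre within 50 bp of the summit. The method was tested on simulated sequences. Percentages over all optimal peaks or genes stand beside counts in the domain. Named items were the 5 members, every optimal peak of the span, the genes at or nearest to its summits, 9 flanking genes and the 3 noncoding genes nearest to Meg3 in promoter signal. The members and lists were chosen with earlier results of these data known. Python 3.11.15, numpy 2.4.6 and pandas 2.3.3 were used.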

Additional observations from a re-analysis of the deposited data

How the results depend on the processing

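No paired analysis was possible because there was only 1 group. Of 47 alternatives to 8 results, 29 stayed within 1.5 times (counts) or 1 SD between replicates (other values). That SD comes from the 2 single-replicate values only and can be very small. For the longest stretch, a change from 135.443 to 135.43 kb fell outside it. The tally of 29 thus does not measure how robust the results are. Leaving out a replicate means using the strongest 68603 peaks of the other, which also drops the IDR threshold and changes the signal scale. The number of peaks in the span was then 14 to 16, the density 41.6 to 47.5 per Mb, the median signal 34.5 to 46.5, the longest stretch without a peak of the list used 135.43 to 135.44 kb and the number of members with a promoter peak 1 to 2 (Dlk1 was lost without replicate 1). The conservative list gave 44.6 peaks per Mb, a median signal of 74.0 and 1 member with a promoter peak (Meg3). The optimal peaks above the median signal gave 7 peaks, 20.8 per Mb, a median of 212, 3 plus sites, 1 member with a promoter peak and a longest stretch of 137 kb. Densities over chromosome 12 and the autosomes were computed for the full optimal list only. The densities from these other lists cannot be set beside them. With no margin the density was 43.8 per Mb and with 100 kb it was 44.3. Leaving out the peak absent from both replicate lists, an alternative chosen after seeing the data, gave 50.5 peaks per Mb and a median of 64.6. The neighbour counts at the Meg3 start without that peak, and in the conservative list, were also added after seeing the data. The motif count was 13 at a p of 1e-04 and 6 at 1e-06. Depth is unknown, which limits what the absence of a listed peak can show.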

Other observations

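The nearest optimal peaks outside the span are strong on the Dlk1 side and far on the Mirg side. On the Dlk1 side the nearest lay 35.0 kb before the first peak of the domain, with a signal of 278 (152 in replicate 1 and 126 in replicate 2) and no motif match. The next had a signal of 315 (170.1 in replicate 1 and 147 in replicate 2) and a minus-strand site, aggCCACCAGGGGGCAGagg. Both exceed every peak inside the span but the one of 301 in Meg3, which is exceeded by the second. On the Mirg side the nearest was 80.3 kb from the last peak of the domain, with a signal of 112 (63.8 and 48.5) and a plus-strand site, gggACGCCAGGGGGCAGcca.

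The motif sites 8825 bp into Rian and 720 bp past Mirg were identical at 17 of 20 bases, the closest pair among the 9 sites of the domain. They lie on opposite strands, on either side of the stretch with no optimal peak. The site that borders that stretch, 10.8 kb into Rian, shared 11 of 20 bases with the one past Mirg. All 9 sites were picked by a match to the same matrix, and the identity of other pairs of motif sites was not computed. The next closest pairs shared 14 bases.

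Signal and motif quality did not go together at every site. The 3 best matches of the domain lay in peaks with signals of 212, 38.1 and 46.1.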
